A study of Mus musculus with 27 samples.

Results

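Ncl, Npm1, Nolc1, Tcof1 and Gnl3 encode abundant scaffold and chaperone proteins of the nucleolus, and they were chosen by gene symbol as 5 of the 38582 genes in the deposited RNA table. Each has 1 row in that table. Their RNA was read in 4 libraries of mouse embryonic stem cells, pluripotent cells grown here with serum and leukemia inhibitory factor. In these, 2 libraries carried a control short hairpin RNA (shCtl) and 2 a short hairpin RNA against WDR43 (shWDR43), all in cells labelled wildtype. Peaks at the 5 loci were read from 17 chromatin immunoprecipitation (ChIP) lists of the same cell type. Of these lists, 5 used a FLAG antibody against tagged WDR43: Fbio-tagged cells under DMSO (the solvent), under DRB (which blocks a kinase that lets paused polymerase move on) or under ActD (actinomycin D, which stops transcription by binding DNA), FB-WDR43 cells and cFB-KI-WDR43 cells. The other 12 mapped RNA polymerase II (Pol II) with shCtl or shWDR43, 2 lists a group, with antibodies to its hypophosphorylated form (hypoP), to serine 5 phosphorylation (Ser5P, high near gene starts) and to serine 2 phosphorylation (Ser2P, high in elongation). Hairpin sequences, time after knockdown and inhibitor doses are not given in the labels. The RNA libraries are biological replicates per the table's header, but for ChIP nothing says whether libraries 1 and 2 are separate cultures or separate hairpins.

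The nucleolus forms around active ribosomal RNA genes, where Pol I makes the long precursor that is cut, modified and packed with ribosomal proteins. WDR43 belongs to the small-subunit processome, the large assembly on the newly made precursor. Nucleolin (Ncl) and nucleophosmin (Npm1) are among the most abundant nucleolar proteins. Nolc1 and Tcof1 are related phosphoproteins built on serine, lysine and acidic repeats that tie snoRNPs, the RNA-guided modification enzymes, to Pol I. Nucleostemin (Gnl3) is a GTPase that shuttles between nucleolus and nucleoplasm and is known for its high level in stem cells.

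The knockdown was seen in the RNA of its target. In shCtl, Wdr43 was at 82.3 and 78.2 FPKM, a level per kilobase of transcript and per sequenced fragment that, by the table's title, was also scaled to a spike-in. In shWDR43 it was at 21.2 and 20.7. The whole table summed to 1015232 and 1040749 FPKM with the control hairpin and to 687051 and 681178 after knockdown, and the read depth behind these sums is unknown. All 8 stem cell markers were detected in every library, at 38.9 FPKM or more. Of the 8, 7 were called lower, where 84.2% of tested genes with a mean of at least 50 FPKM were. After centring 4 of the 8 were called lower, where 63.5% of those abundant genes were. The sum of the 8 markers ranged from 4769 to 4808 FPKM in shCtl and from 2466.5 to 2616 in shWDR43. Of 7 fibroblast markers, which would mark feeder cells, Lum and Dcn were listed at 0 in all 4 libraries and Postn at 0.1 or less. The summed level of the 7 was 29.2 and 40.4 FPKM in shCtl and 35.6 and 61.6 in shWDR43, most of it Col1a1 and Col1a2, which did not pass the test on the spike-in scale (log2 fold changes 0.61 and 0.56). After centring Col1a2 was called higher (0.89, limma adjusted p = 0.0467), and with the replicate block both were (0.00678 for Col1a1 and 0.0208 for Col1a2). Thy1 was called lower on both scales. The part of these markers in the results below was not tested.

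All 5 scaffold genes fell in shWDR43, to between 34.3% (Nolc1) and 43.1% (Npm1) of their shCtl mean. In such bulk samples, fewer cells of a type and less RNA per cell cannot be told apart. In each of the 5, both shWDR43 libraries lay below both shCtl libraries, as they did in 63.6% of the 12452 tested genes. All 5 passed limma's test across those genes (Benjamini-Hochberg adjusted p under 0.05), where 42.7% of tested genes were called lower and 6.1% higher. Among the 1307 tested genes with a mean of at least 50 FPKM, 84.2% were called lower, so the call by itself says little about genes this abundant. The size of the fall lay toward the low end of all genes: the median log2 fold change was -1.24 over the 5, -0.79 over those 1307 genes and -0.39 over all tested genes.

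**Figure D1:**
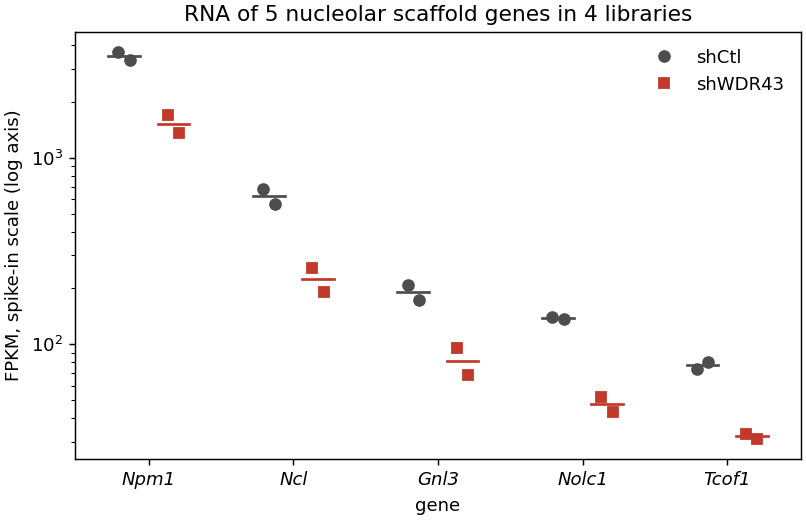
FPKM on the spike-in scale (log axis) of the 5 genes in each of 4 libraries, with shCtl as circles, shWDR43 as squares and bars at the mean of 2 libraries. Both shWDR43 libraries lie below both shCtl libraries for every gene, and the order from Npm1 down to Tcof1 is the same in all 4 libraries.

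The starts of these genes are rich in CpG where a promoter sequence was at hand. RefSeq (GRCm38.p6) gave promoters for Ncl, Nolc1 and Gnl3, 3 of the 5. Below are the 250 bases before the start of the 2 genes that fell most, shown because the WDR43 and hypoP peaks described further on covered the starts of both, with CpG in capitals. Ncl lies on the minus strand (chr1:86359456-86359705) and Nolc1 on the plus strand (chr19:46075597-46075846).
Ncl: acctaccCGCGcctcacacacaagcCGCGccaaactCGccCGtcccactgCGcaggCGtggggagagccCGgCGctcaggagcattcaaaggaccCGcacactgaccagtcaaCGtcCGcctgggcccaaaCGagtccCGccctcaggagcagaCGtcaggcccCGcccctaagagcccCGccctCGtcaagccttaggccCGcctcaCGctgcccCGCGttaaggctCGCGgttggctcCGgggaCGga
Nolc1: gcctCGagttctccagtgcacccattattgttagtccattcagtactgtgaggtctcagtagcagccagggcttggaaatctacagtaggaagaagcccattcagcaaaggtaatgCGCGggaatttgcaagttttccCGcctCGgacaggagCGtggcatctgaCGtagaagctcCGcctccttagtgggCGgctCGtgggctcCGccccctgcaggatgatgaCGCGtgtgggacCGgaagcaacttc
Ncl holds 27 CpG in this window and Nolc1 14, more than 91.4% and 70.6% of 32851 RefSeq promoters, whose median is 6. Gnl3 holds 36, more than 97.4%. On either strand, 7 motifs were searched: the E-box (CACGTG), the CCAAT box, the TATA box (TATAAA), the ETS core (CCGGAAG) and, by name, the NRF1 palindrome, the palindromic CGCG element and the YY1 motif. The only match was CCGGAAG in Nolc1, beginning 14 bases before the start. Of all promoters 6.91% hold CCGGAAG in this window, 6.02% the E-box, 33.8% the CCAAT box, 12.4% the TATA box, 0.782% the NRF1 motif, 0.390% the CGCG element and 0.207% the YY1 motif.

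Nolc1, the snoRNP chaperone also called Nopp140, had the largest fall. The 2 control libraries held Nolc1 (NM_001039352, chromosome 19, 46150353 to 46160020, mm9) at 140.7 and 136.5 FPKM, and the 2 knockdown libraries at 51.9 and 43.2. The libraries within each group were close, and the groups lay far apart. Its mean went from 139 ± 2.97 to 47.6 ± 6.15 FPKM (SD, n = 2 each), 2.91-fold lower, and the log2 fold change was -1.53 ± 0.13 (SE, adjusted p = 0.00107 by limma). It ranked 169th of 12452 tested genes from the most negative change.

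Ncl, an RNA-binding protein with an acidic front part that acts in ribosomal gene transcription and early precursor cleavage, followed closely. Ncl (NM_010880, chromosome 1, 88241294 to 88256030, mm9) measured 680.5 and 563.6 FPKM under the control hairpin, against 257.6 and 189.4 under shWDR43. Library 2 was the lower one in both groups, and the groups did not overlap. The mean went from 622 ± 82.7 to 224 ± 48.2 FPKM (SD, n = 2 each), 2.78-fold lower, and the log2 fold change was -1.48 ± 0.17 (SE, adjusted p = 0.00152 by limma), rank 206.

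Tcof1, treacle, binds Pol I and its factor UBF and is the gene altered in Treacher Collins syndrome. Tcof1 (NM_011552, chromosome 18, 60973410 to 61008618, mm9) had the lowest level of the 5 genes, with 73.7 and 80.3 FPKM in the control libraries, against 33.2 and 30.9 in the knockdown. It was the one member in which library 1 was the lower shCtl library. The mean went from 77.0 ± 4.67 to 32.1 ± 1.63 FPKM (SD, n = 2 each), 2.40-fold lower, and the log2 fold change was -1.24 ± 0.13 (SE, limma adjusted p = 0.00119). An unnamed noncoding row inside its locus, XLOC_011214, went from 0.7 and 0.8 FPKM to 0.1 and 0.2, below the level at which genes were tested.

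Gnl3, nucleostemin, showed the widest spread between replicates relative to its change. In Gnl3 (NM_153547, chromosome 14, 31825619 to 31832275, mm9) the control libraries gave 207.8 and 173.0 FPKM and the knockdown libraries 95.2 and 68.3, so library 2 was again lower in both groups. The mean went from 190 ± 24.6 to 81.8 ± 19.0 FPKM (SD, n = 2 each), 2.33-fold lower. Its log2 fold change was -1.22 ± 0.18 (SE, limma adjusted p = 0.00275), and the call was lost when genes of low value were left in the fit (adjusted p = 0.0553).

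Npm1, a histone and ribosome chaperone that forms pentamers and fills the outer nucleolar layer, is the most abundant of the 5. Its RNA (NM_001252260, chromosome 11, 33052498 to 33063206, mm9) reached 3702 and 3336 FPKM with the control hairpin but 1686 and 1348 with shWDR43, and its mean level ranked 20th among tested genes. Library 2 was the lower one in both groups, which did not overlap. The mean went from 3519 ± 259 to 1517 ± 239 FPKM (SD, n = 2 each), 2.32-fold lower, and the log2 fold change was -1.22 ± 0.13 (SE, adjusted p = 0.00121 by limma). Processed copies of Npm1 are common in mammalian genomes, so its value is uncertain where reads shared with such copies were counted. In the authors' deposited table the signed fold changes were -2.91 for Nolc1, -2.78 for Ncl, -2.40 for Tcof1, -2.33 for Gnl3 and -2.32 for Npm1.

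Against all tested genes with a mean of at least 50 FPKM these falls were large but not extreme. That set was not matched to the level of each member, and these levels ranked from 20th (Npm1) to 1204th (Tcof1) among tested genes. Of the 1307 genes with a mean of at least 50 FPKM, 2.68% had a lower log2 fold change than Nolc1, 3.29% than Ncl, 8.34% than Tcof1, 8.95% than Gnl3 and 9.33% than Npm1. The 95% intervals of the 5 log2 fold changes overlapped one another, from -1.85 to -1.21 for Nolc1 and from -1.52 to -0.92 for Npm1, and differences between members were not tested. Most genes were lower on the spike-in scale, so libraries were also centred on their median gene, which removed a shift of -0.33. The 5 genes then had log2 fold changes from -1.20 (Nolc1) to -0.89 (Npm1), all 5 still called lower, where 20.9% of tested genes and 63.5% of those with a mean of at least 50 FPKM were lower. With any 1 of the 4 libraries left out, all 5 log2 fold changes stayed below 0, from -1.70 to -0.99, but limma's adjusted p rose to between 0.0617 and 0.134 and no gene was called, members included.

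**Figure D2:**
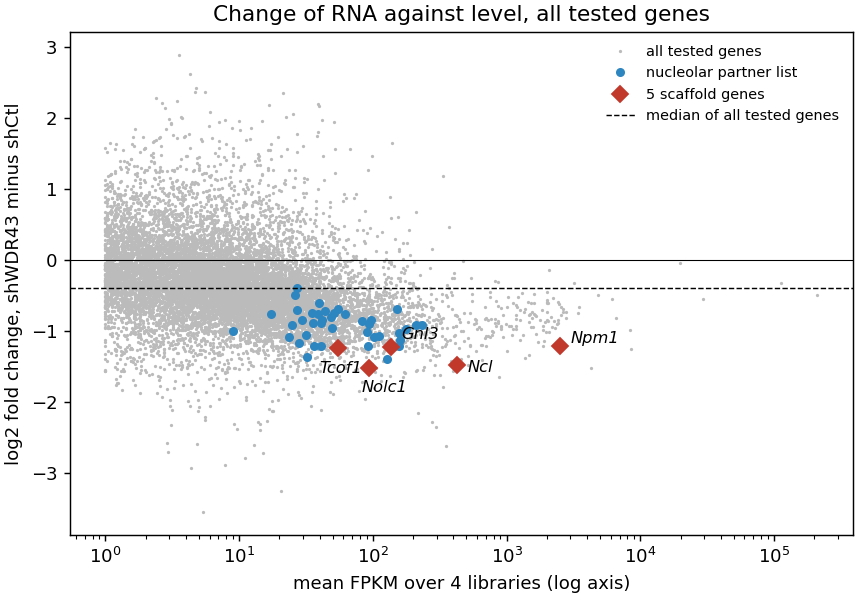
Log2 fold change (shWDR43 minus shCtl) against mean FPKM over 4 libraries (log axis) for all 12452 tested genes (grey), the nucleolar partner list (blue) and the 5 scaffold genes (red). The 5 genes lie between -1.53 and -1.22, below the dashed median of -0.39.

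The balance among the 5 RNAs shifted less than their level. Summed, they made 4804.6 and 4289.7 FPKM in shCtl and 2124.3 and 1679.8 in shWDR43. As a share of each library's table total, in which a scale factor common to all genes cancels, this was 0.473% and 0.412% in shCtl and 0.309% and 0.247% in shWDR43. Npm1 supplied 77.0% and 77.8% of the sum in shCtl and 79.4% and 80.2% in shWDR43. For every 100 FPKM of Npm1 there were 18.4 and 16.9 FPKM of Ncl in shCtl, against 15.3 and 14.1 in shWDR43. Nolc1 likewise stood at 3.80 and 4.09 per 100 of Npm1 in shCtl and at 3.08 and 3.20 in shWDR43. Tcof1 (1.99 and 2.41, then 1.97 and 2.29) and Gnl3 (5.61 and 5.19, then 5.65 and 5.07) kept overlapping ratios to Npm1. These ratios were not tested.

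Other nucleolar genes fell with them, with a smaller median change. A list of 42 paralogs, binding partners and further nucleolar proteins held 40 tested genes. All 40 were called lower, with a median log2 fold change of -0.91, against 42.7% and -0.39 over all tested genes. Among genes with a mean of at least 50 FPKM the share and median were 84.2% and -0.79. After centring 35 of the 40 were lower, where 20.9% of all tested genes and 63.5% of the abundant ones were. Without the filter on low values 23 of 41 were lower, against 2593 of 22832 genes. Nop10, a small H/ACA snoRNP protein, went from 171.8 and 198.4 FPKM in shCtl to 69.3 and 69.2 in shWDR43 and fell most in the list (log2 fold change -1.40). It was followed by Rrp1b, a ribosome assembly protein (-1.37). At the other end were Polr1a, the largest Pol I subunit (-0.39, not called after centring), and Surf6, a granular-layer protein (-0.50, likewise). Among relatives of Npm1 and Gnl3, Gnl1 (log2 fold change -1.09), Npm3 (-0.85), Gnl2 (-0.76), Gnl3l (-0.70) and Lsg1 (-0.61) were called lower, Gnl2 and Lsg1 not after centring, and their differences from Npm1 and Gnl3 were not tested. Npm2, the egg nucleoplasmin, stood at 0.6 FPKM or less and was not tested.

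**Figure D3:**
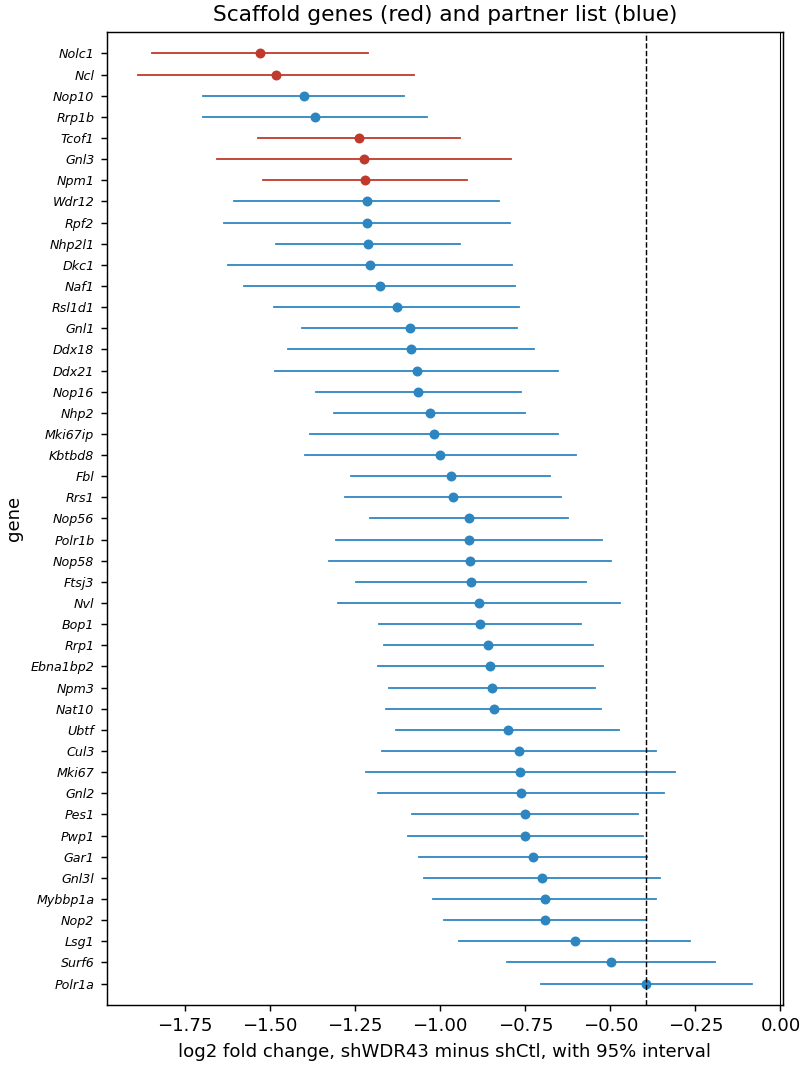
Log2 fold change (shWDR43 minus shCtl, limma) with 95% interval for the 5 scaffold genes (red) and the 40 tested partner genes (blue), sorted, with a dashed line at the median of all tested genes. The scaffold genes take 5 of the 7 most negative places, and the list ends with Polr1a at -0.39.

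Casein kinase 2, which phosphorylates the acidic serine stretches of Nolc1, Tcof1, Ncl and Npm1, had all 3 subunit genes lower. Csnk2a1 (log2 fold change -0.67), Csnk2a2 (-0.65) and Csnk2b (-0.56) passed limma's threshold on the spike-in scale, but after centring Csnk2a1 alone did. Their median of -0.65 compares with -0.39 over all tested genes, of which 42.7% were called lower, and with -0.79 over those with a mean of at least 50 FPKM, of which 84.2% were. Mdm2, the ubiquitin ligase of p53 that Npm1, Ncl and Gnl3 are known to bind, went the other way. Mdm2 rose from 53.2 and 49.7 FPKM in shCtl to 158.5 and 129.2 in shWDR43 (log2 fold change 1.46), and Cdkn1a, the p53 target p21, rose by 1.52 on the log2 scale. Trp53 (-0.66) and Cdkn2a, which encodes the Npm1 partner ARF (-0.76, not called after centring), fell, and Mdm4 (-0.13) did not pass. The list thus held 2 higher and 2 lower of 5 genes, where 6.1% of tested genes were called higher and 42.7% lower. Among genes with a mean of at least 50 FPKM, 2.22% were called higher and 84.2% lower.

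By profile over the 4 libraries, the genes most like each scaffold gene were not other scaffold genes. Likeness was the Euclidean distance between log2 profiles set to 0 at the shCtl mean, over 5485 other genes with a mean of at least 10 FPKM, and is a description. The nearest were Abcg2, Idi1 and Lgr4 to Ncl, Zfp532, Lbr and Uchl3 to Npm1, and Nudt19, Mthfd2 and Sms to Nolc1. Ybx3, Bst2 and Slc7a5 were nearest to Tcof1. Gnl3 lay nearest to Dkc1 (distance 0.05), the pseudouridine synthase of H/ACA snoRNPs, then to Haus1 and XLOC_017344. Within the 5, Npm1 and Gnl3 were closest (0.13, rank 15 from Gnl3) and Ncl and Tcof1 farthest apart (0.51).

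WDR43 peaks lay at 1 end of every scaffold gene locus in the 3 lists whose labels name no inhibitor. For Ncl, Nolc1 and Gnl3 this end was the start by RefSeq strand. For Npm1 and Tcof1, whose strand the files do not give, it was the end with the higher coordinate, and the same end held their hypoP peaks. All 5 loci had a peak within 1 kb of an end in each of the DMSO, FB and cFB-KI lists, as did 65.2% of 10669 tested coding loci and 75.9% of the 1198 with a mean of at least 50 FPKM. Ncl had the widest DMSO peak of the 5, 1573 bases, reaching 723 bases upstream and 850 into the gene. Its score, the authors' own value, exceeded that of 98.5% of the DMSO list. Gnl3 (678 bases, score 233) and Nolc1 (483 bases, score 178) followed, against 377 for Ncl, and Npm1 had a pair of peaks of 300 and 311 bases, the higher above 67.0%. Tcof1 had the narrowest, 210 bases, with a score above 41.2% of the list. In the FB list Ncl again ranked first, above 99.3% of peaks, then Gnl3 (95.9%), Npm1 (86.7%), Nolc1 (84.4%) and Tcof1 (74.8%). In the cFB-KI list Npm1 (97.7%) ranked before Ncl (95.9%) and Gnl3 (80.6%), and Tcof1 was again last (47.3%).

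Ncl was the one member with WDR43 peaks under both inhibitors. Under DRB its peak was 409 bases wide, with a score of 84.1 that exceeded 78.6% of that list. Under ActD it was 296 bases wide and lay wholly inside the gene, between 58 and 354 bases from its start, with a score of 55.0, above 23.3% of the list and near the lowest score of 50. The other 4 genes had no peak within 5 kb of the locus in either list. Of tested coding loci, 10.5% had a peak at an end under DRB and 0.244% under ActD, and of those with a mean of at least 50 FPKM 16.7% and 0.668%. Peaks in all of the DMSO, DRB and ActD lists were found at 19 of 10669 loci (0.178%, and 0.501% of the abundant ones). Ncl and Wdr43 itself were among them and 0 of the partner list (these were looked up after the values were seen). The 19 loci ranged in mean RNA level from 1.18 FPKM (Cdk5r2) to 3173 (Lars2), and many, such as Mapk8ip2 (1.28) and Svop (1.45), were low. What these loci have in common was not tested. Each condition is 1 library, and the lists hold 31189 (DMSO), 4426 (DRB) and 407 (ActD) peaks, so these differences have no replicate check.

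**Figure D4:**
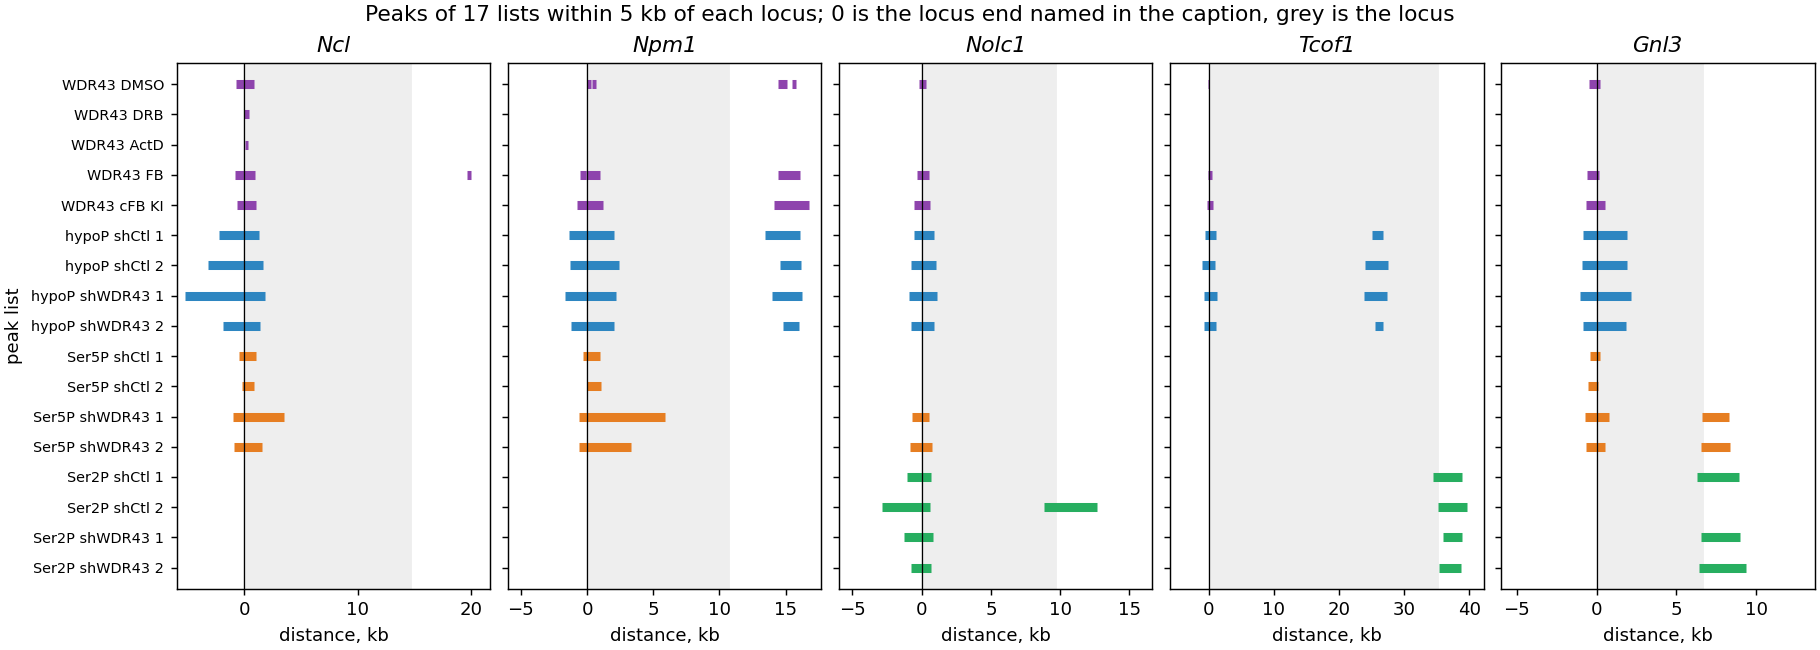
Peaks of 17 lists (rows) along the 5 loci (grey), by distance in kb from the start of Ncl, Nolc1 and Gnl3 and from the higher-coordinate end of Npm1 and Tcof1, to 5 kb beyond each locus. Most WDR43 (purple), hypoP (blue) and Ser5P (orange) peaks lie at 0, with others inside Tcof1 (hypoP), at the far end of Gnl3 (Ser5P) and past the far ends of Npm1 and Ncl. Ser2P peaks (green) lie at 0 in Nolc1, with 1 more at its far end, and at or past the far end in Tcof1 and Gnl3.

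HypoP Pol II lay at the same ends in all 4 lists for all 5 loci, as at 84.8% of tested coding loci and 93.2% of the abundant ones. The labels of the shCtl and shWDR43 hypoP samples differ in their fields, and whether the libraries were processed together is not stated. At Npm1 the hypoP peak covered 3452 and 3670 bases under shCtl and 3865 and 3254 under shWDR43. Ncl had 3498 and 4868 bases in the control lists, against 7073 and 3251 in the knockdown. Nolc1 had 1483 and 1786 bases, against 2033 and 1660. Widths at these loci, and likewise at Tcof1 (1652 and 1934, then 1954 and 1746) and Gnl3 (2747 and 2863, then 3203 and 2738), overlapped between the groups. The authors' scores overlapped at Ncl (1301 and 800 in shCtl, 379 and 1661 in shWDR43). Scores were higher in both shWDR43 lists at Npm1 (1238 and 1356, then 2014 and 1641) and Nolc1 (334 and 328, then 782 and 390). The same held at Tcof1 (312 and 327, then 809 and 367) and Gnl3 (606 and 613, then 1256 and 934). The share of all loci with such higher scores was not computed. Every DMSO WDR43 peak at the 5 loci lay wholly under a hypoP peak of shCtl library 1, as did 90.9% of DMSO peaks at ends of coding loci. Tcof1 held a further hypoP peak inside the gene in all 4 lists, between 23786 and 27604 bases from its higher-coordinate end.

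Ser5P peaks at Ncl, Npm1 and Gnl3 were wider in both shWDR43 lists than in both shCtl lists. At Npm1 the peak was 1337 and 1092 bases wide in shCtl and 6532 and 3914 in shWDR43, where it reached 5928 and 3335 bases into the locus. At Ncl it was 1497 and 1038 bases wide in shCtl and 4524 and 2510 in shWDR43. At the start of Gnl3 the width was 661 and 624 bases with shCtl and 1453 and 1171 with shWDR43. These 3 members had peaks at an end in all 4 Ser5P lists, which 2.53% of tested coding loci and 6.34% of those with a mean of at least 50 FPKM had. Of the 270 coding loci that did, 86.7% had wider peaks in both shWDR43 lists, so the widening at the 3 genes is near the background. Nolc1 had no Ser5P peak in shCtl and peaks of 1291 and 1589 bases at its start in shWDR43, with scores of 50.2 and 56.7. Such a gain in both shWDR43 lists was seen at 11.2% of coding loci and 19.2% of the abundant ones. At the far end of Gnl3, Ser5P peaks of 1659 and 1813 bases (scores 61.1 and 56.8) were called in the shWDR43 lists and none in shCtl. The share of loci that gained a peak at the far end in this way was not computed. The shWDR43 lists are longer, with 6535 and 7589 peaks against 1879 and 2520 in shCtl, and the depth of the libraries is unknown. Tcof1 had no Ser5P peak in any list.

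**Figure D5:**
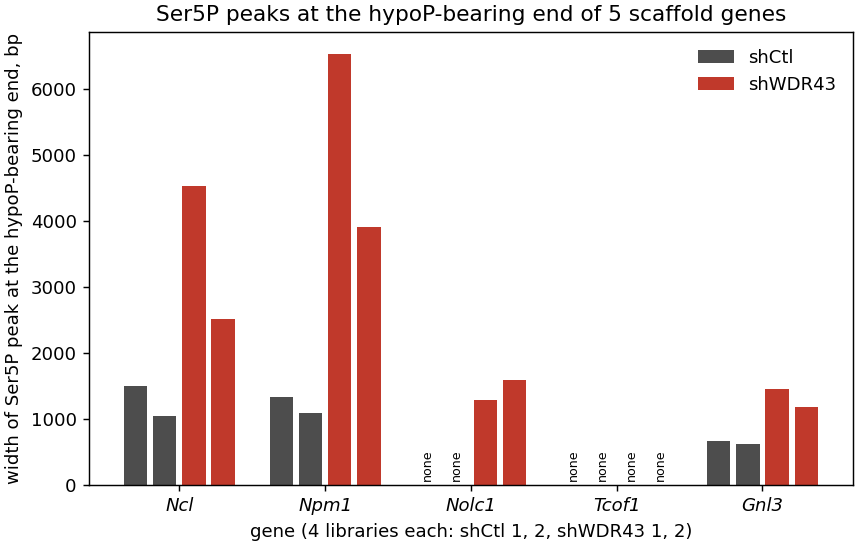
Width in bases of the Ser5P peak within 1 kb of the locus end that holds the hypoP peaks, for each gene in 2 shCtl (grey) and 2 shWDR43 (red) lists, with "none" where no peak was called. Npm1 is widest at 6532 bases, Nolc1 has peaks in shWDR43 lists alone and Tcof1 has none.

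Ser2P peaks divided the loci, and the most abundant genes had none. No Ser2P peak was called within 5 kb of Ncl or Npm1 in any of 4 lists, as within 1 kb of an end at 60.6% of tested coding loci and 31.7% of those with a mean of at least 50 FPKM. Nolc1 and Tcof1 had peaks at an end in all 4 lists, as did 15.4% of coding loci and 35.6% of the abundant ones. At Nolc1 a Ser2P peak covered the start in all 4 lists, with 691 and 634 bases inside the gene in shCtl and 788 and 657 in shWDR43. The longer part of each lay upstream of the start, 1031 and 2859 bases in shCtl and 1258 and 789 in shWDR43. Neighbouring genes were searched to 1 kb from each locus, so whether these peaks belong to Nolc1 or to a gene upstream is unknown. In shCtl library 2 a further peak of 3837 bases, with a score of 50.1, lay over the far end of Nolc1. At Tcof1 peaks lay at and past the other end of the locus, 4399 and 4353 bases wide in shCtl and 3001 and 3281 in shWDR43, so both shWDR43 peaks were the narrower. Peaks of the Ser2P lists had a median width of 1918.5 and 2018 bases in shCtl and 1660 and 1683 in shWDR43. Loci with narrower Ser2P peaks in both shWDR43 lists were not counted, so no background is known for Tcof1. With the control hairpin the Tcof1 peaks scored 57.8 and 79.2, against 80.1 and 57.5 after knockdown, so their scores overlapped. At Gnl3 peaks lay over the far end in shCtl library 1 and both shWDR43 lists, 2667, 2455 and 2973 bases wide, but not in shCtl library 2. Over the 5 loci, the median share of the locus under Ser2P peaks was 2.06% in shCtl library 1 and 0% in shCtl library 2 and in both shWDR43 lists, so the shCtl mean of 1.03% rests on library 1 and the groups overlap. With 2 lists against 2, an exact permutation test cannot go below p = 0.3333, and none was run on the peak lists.

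Gnl3 shares both of its ends with other genes. Its start lies 48 bases from the locus of Pbrm1, a chromatin remodeller subunit, and its far end overlaps Glt8d1 by 9 bases, so peaks there cannot be given to 1 gene alone. Pbrm1 fell from a mean of 26.8 ± 5.59 to 14.9 ± 2.62 FPKM (SD, n = 2 each), a change of -0.80 on the log2 scale (limma adjusted p = 0.0131, not called after centring). Glt8d1 did not pass (-0.08), with 4.4 and 5.9 FPKM in shCtl and 5.1 and 4.5 in shWDR43. The noncoding C130036L24Rik lies 118 bases from Ncl and stood at 0.9 FPKM or less. RefSeq places the small nucleolar RNAs Snora75 and Snord82 inside Ncl and Snord69 and Snord19 inside Gnl3, and these were not analysed here. In all, Gnl3 had a peak at an end in 14 of 17 lists, Ncl and Nolc1 in 13, and Npm1 and Tcof1 in 11. The median was 8 over tested coding loci and 10 over those with a mean of at least 50 FPKM. Peaks at an end in 11 or more lists were found at 20.8% of tested coding loci and 47.1% of the abundant ones. The set of lists at Ncl was shared by 1 other coding locus, Ttc14, and that at Gnl3 by Atf4, Pafah1b1, Srsf2 and Trim41, while 279 loci had the set of Tcof1, itself included.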

How the data were processed

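RNA was compared in 4 libraries and peaks were read in 17 ChIP lists. For each gene and RNA library the authors deposited a value read here as FPKM, since the submitters' processing notes name Cufflinks (with TopHat and mm9). How the spike-in entered is not stated, and depth is unknown. Per the labels, RNA was purified as mRNA. Per the file headers the table also holds the authors' fold change and p-value. The folds are printed for the members, and the p-values are not used here. The authors deposited each peak with a score, at least 50, from lists called per library after Bowtie2 alignment to mm9 per the submitters' processing notes. Settings, control and depth of these lists are not stated.

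Genes with a mean of at least 1 FPKM (12452) were tested with limma 3.58.1 (R 4.3.3, intensity trend) on log2(FPKM + 1), which understates changes of low genes. P-values were adjusted by Benjamini-Hochberg over all tested genes, with a threshold of 0.05. The fit and the overlap code were tested on simulated data. Peaks counted as at an end when at least 1 bp lay within 1 kb of either end of the deposited locus. Locus starts were read as 0-based and are printed 1-based. Named genes were all 5 members, Wdr43, the 2 highest and 2 lowest of the partner list with its paralogs of members, the tested genes of the casein kinase 2 and p53 lists, rows overlapping a member, and the 3 most alike genes per member. Pbrm1, C130036L24Rik and the paralogs were added after their values were seen. The members and lists were chosen with earlier results of these data known. 1 listed gene (Noc2l) was not analysed here. Other pseudocounts, filters, scalings and windows were tried. Protein composition was planned and not run. The table states no use of strand, so overlapping loci are uncertain.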

Additional observations from a re-analysis of the deposited data

How the results depend on the processing

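The 5 members kept their direction in all 20 values from fits without 1 library and in all 30 from the other settings, 1 value per member and fit, with log2 fold changes from -1.70 to -0.89. With 1 library left out, the number of members called ranged from 0 to 0, and so did the numbers of all genes called lower and higher, where the lone library of a group is assumed to vary like the other group. By unadjusted p under 0.05, limma then held all 5 members, 3928 to 4902 lower and 576 to 730 higher genes. Over all tested genes the main numbers were 5322 lower and 760 higher. They were 2593 and 402 without the filter on low values (4 of the 5 members called) and 2606 and 1615 after centring, which also left 1 of the 3 casein kinase 2 genes called. A filter at 5 FPKM gave 472 higher genes. Without the filter 23 partner genes were lower. With the replicate block all 5 members were called, among 5926 lower and 840 higher genes. The numbers do not pair the libraries by any label, and the differences between libraries 1 and 2 in the groups correlated across genes at r = 0.05. With only peaks scoring at least 100, pairs of a member and a list with a peak at an end fell from 14 to 4 of 20 for Ser5P and from 11 to 7 of 20 for Ser2P, against 13 of 25 (from 17) for WDR43 and 20 of 20 for hypoP. Widening loci by 1 kb moved the median share under Ser2P peaks to 3.57% in shCtl and 1.42% in shWDR43, and with only peaks above the median score of their list it was 0% in both. The cause of these changes was not tested. Unknown read depth limits any statement that a peak is missing.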

Other observations

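Beyond the lower-coordinate end of Npm1, opposite the end with its main peaks, lay a second region with peaks. Neighbouring genes were searched to 1 kb from each locus, so whether this region belongs to another gene is unknown. WDR43 peaks there, outside the locus, ran to 5065, 5403 and 6053 bases past that end in the DMSO, FB and cFB-KI lists. The FB peak scored 817, more than the 299 of the FB peak at the other end of Npm1. HypoP peaks lay over the same stretch in all 4 lists, 2609 and 1568 bases wide in shCtl and 2245 and 1222 in shWDR43. No peak of the DRB, ActD, Ser5P or Ser2P lists was called within 5 kb past that end. These values were looked up after the peak lists had been examined.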
